A study of Homo sapiens with 6 samples.

Results

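Integrin subunits and laminin chains were followed in EndoC-βH1, a human beta cell line of the pancreas, from control cells to cells exposed to inflammatory cytokines. Members were chosen by gene symbol alone: every integrin α chain (ITGA), integrin β chain (ITGB) and laminin chain (LAMA, LAMB and LAMC) in the tables. The rule found 38 genes, 26 integrins and 12 laminins, among 61695 loci. No measured value entered it. The 6 libraries were 3 control and 3 cytokine libraries of poly(A) RNA. The cocktail held IL-17 at a dose of 100, IFN-γ at one of 50, TNF-α at one of 10 and IL-1β at one of 5, each in ng/ml. All cells came from this 1 line, which is a model of beta cells and not islet tissue. They were detached with trypsin, reseeded at 75000 cells per well and left 24 h to adhere, in serum-free medium with 11 mM glucose. Wells were coated with Matrigel, a basement membrane extract rich in laminin, and with fibronectin, so both groups had integrin ligands supplied from outside. The labels call the controls cells before exposure, while the extraction protocol speaks of 24 h with or without cytokines, so time in culture and cytokines cannot be told apart from the labels alone.

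Integrins are cell surface receptors built from 1 α and 1 β chain, and the pair decides which matrix protein is bound. Laminins are the cross-shaped trimers of basement membranes, each built from 1 α, 1 β and 1 γ chain, and the α chain carries the main integrin-binding site. Beta cells in islets touch a basement membrane laid down mostly by the vessels next to them, and β1 integrins are their best known matrix receptors.

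The authors' deposited tables give 1 comparison, cytokine over control, and no values per library. Each value below is therefore a group value from those tables. The count table (DESeq) gives for each locus a mean of normalized counts, a log2 fold change with its standard error (SE) and an adjusted p. Group means were worked out from that mean and fold change. The FPKM tables (Cuffdiff) give fragments scaled to transcript length and library size, per group, for loci and for transcripts, with a q-value and no error. An adjusted p or q under 0.05 counts as past the threshold, and each p covers only the spread between these libraries, which the labels do not describe as separate cultures. Mean depth was 40881975 normalized counts per library. Among marker genes listed for other cells, 9 of 12 leukocyte markers lay under 10 counts, with CD3D and CD2 at no read and PTPRC, the pan-leukocyte surface marker, at a mean of 1.69. The other 3 were CSF1R at 13.2, CD14 at 84.1 and the CD68 locus, which holds 9 genes, at 23469.6. All 8 endothelial markers lay under 10 counts, and their sum was 11.0 in control and 11.8 in cytokine libraries. All 16 beta cell markers had at least 10 counts, and 4 rose, 9 fell and 3 did not pass, the last among them PDX1 (17183 to 16950.1 normalized counts). The largest fall was that of G6PC2 (log2 fold change -1.74), beside MAFA (-1.63) and the INS locus of 7 genes (-0.57), and the largest rises those of the IAPP locus of 6 genes (2.25) and CHGA (1.12). For CHGA the FPKM gene table gave no q-value. In bulk RNA, fewer cells with a transcript and less transcript per cell cannot be told apart.

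Of the 38 genes, 34 had an adjusted p, and 18 of these passed the threshold in the authors' deposited count table: 7 rose and 11 fell. In all 30206 loci with an adjusted p, 37.7% passed, 18.0% as higher and 19.7% as lower. Abundant loci pass more often. Of the 19 members with a mean of at least 100 counts 15 passed, or 78.9%, beside 71.2% of all loci at that level. The share of members past the threshold thus lay near that of other loci of like abundance. The median log2 fold change of the 34 members was -0.01, beside 0.05 for all loci tested. At a mean of at least 100 counts the medians were -0.01 for members and -0.05 for all loci. The members moved both ways, and the 2 families did not move as blocks. Among 23 integrins tested, 4 rose and 6 fell. Among 11 laminin chains tested, 3 rose and 5 fell.

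**Figure D1:**
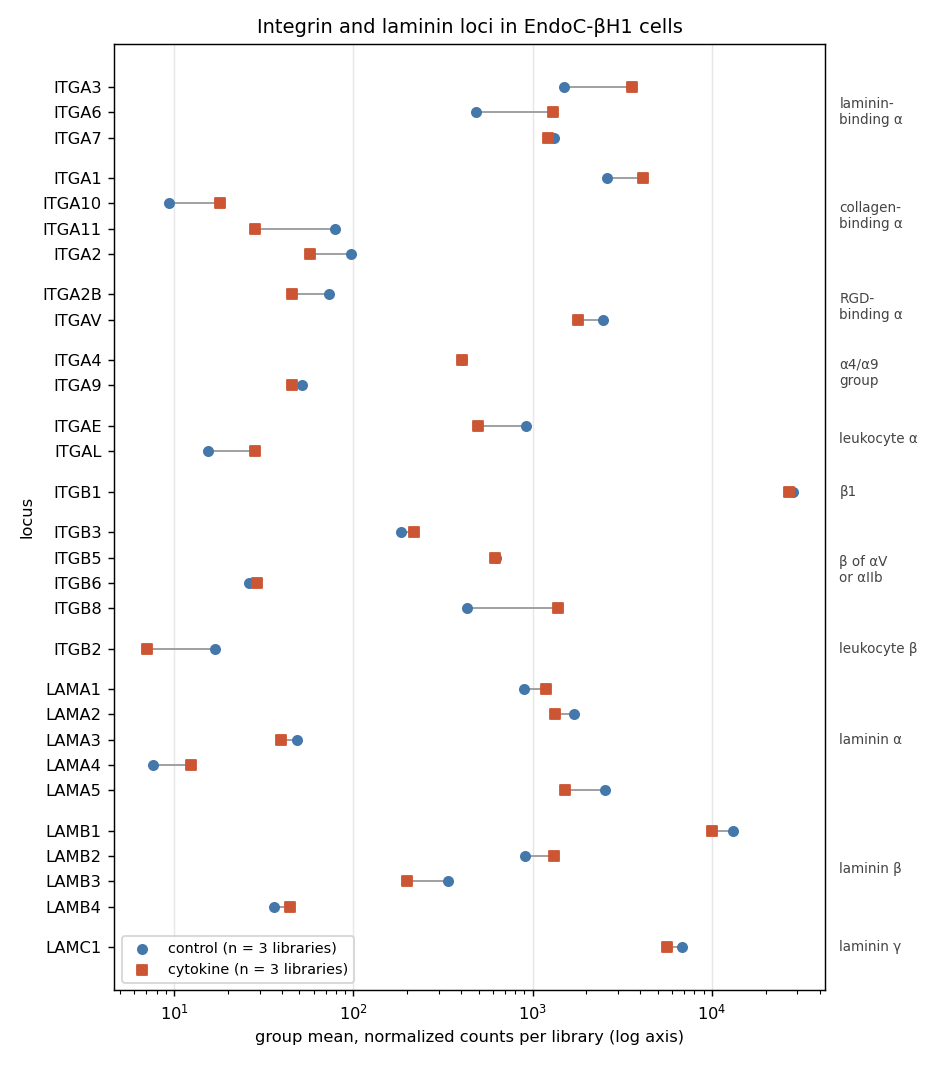
Group means in normalized counts per library (log axis) for 29 members with a mean of at least 10, ordered by role, with circles for control and squares for cytokine. ITGB1 is far above every other member in both groups, and ITGB8, ITGA6 and ITGA3 have the longest rises among members drawn that passed the threshold.

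Of the 3 laminin-binding α chains, 2 rose. ITGA3, the α3 chain, which pairs with β1 and binds the laminins of epithelial basement membranes, had 1500.2 normalized counts in control and 3582 in cytokine libraries (log2 fold change 1.26 ± 0.044 SE, adjusted p = 1.34e-180). ITGA6, the α6 chain, which pairs with β1 or β4 and binds most laminins, had 486 normalized counts in control and 1304 in cytokine libraries (log2 fold change 1.43 ± 0.066 SE, adjusted p = 4.11e-103). Both more than doubled, with 95% intervals of 1.17 to 1.34 and 1.30 to 1.55 on the log2 scale. The third laminin-binding chain, ITGA7, known from muscle, went from 1321 to 1227 normalized counts (log2 fold change -0.11 ± 0.054 SE, adjusted p = 0.118). It did not pass, and the deposited FPKM gene table gave it the opposite sign (log2 0.15, q = 0.443). Of 6 ductal cell markers tested, 3 rose and none fell: SOX9 (log2 fold change 2.40 ± 0.32 SE), KRT19 (log2 fold change 0.27 ± 0.035 SE) and the MUC1 locus of 3 genes (log2 fold change 0.26 ± 0.051 SE). The summed level of the 7 markers was 4802 counts in control and 5852 with cytokines, with KRT7 and SPP1 under 10 counts, and their part in the rise of these α chains was not tested.

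Per length, the α3 chain became the most abundant laminin-binding chain. ITGA3 went from 7.99 to 20.2 FPKM in the deposited FPKM gene table (log2 1.34, q = 2.32e-04). ITGA7 was at 8.23 and 9.14 FPKM, and ITGA6 at 2.49 and 7.17. In control cells ITGA3 and ITGA7 were thus side by side, and that table gives no error to tell their levels apart. Most of the ITGA3 signal came from the full-length ITGA3-202, which rose from 5.97 to 13.2 FPKM (log2 1.14, q = 8.33e-04).

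ITGA6 is made in 2 forms that differ in the end of the protein inside the cell. A 130-base exon on chromosome 2, read in ITGA6-201 and skipped in ITGA6-202, carries its own stop codon. The 2 coding ends are shown because both forms rose. They are the forward strand of hg38 from the first base of the exon to its stop codon, which is in capitals.
ITGA6-201, chr2:172501772-172501879: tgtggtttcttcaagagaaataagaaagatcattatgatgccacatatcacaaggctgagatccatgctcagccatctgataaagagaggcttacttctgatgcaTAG
ITGA6-202, chr2:172504091-172504252: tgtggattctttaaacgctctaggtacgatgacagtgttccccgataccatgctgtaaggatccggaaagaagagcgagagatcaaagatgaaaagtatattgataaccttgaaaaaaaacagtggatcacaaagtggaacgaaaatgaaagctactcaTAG
Skipping the exon replaces 105 coding bases before the stop by 159. ITGA6-202 rose from 1.33 to 3.3 FPKM (log2 1.31, q = 8.33e-04), and ITGA6-201 rose from 0.834 to 2.65 FPKM (log2 1.67, q = 8.33e-04). Of the FPKM of these 2 transcripts, the form with the exon held 38.4% in control and 44.5% with cytokines. Both tails were therefore present in both groups, and whether their balance shifted was not tested, since the deposited tables give no test of it.

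Neither β partner of these chains passed as higher. ITGB1, the β1 chain, which pairs with most matrix-binding α chains, was the most abundant member by count and per length. It had 28338 normalized counts in control and 27033 in cytokine libraries (log2 fold change -0.07 ± 0.023 SE, adjusted p = 0.00775). That is a fall to 0.954 times control, and it is lost when fold changes are centred on the median of abundant loci (-0.01, adjusted p = 0.758). The deposited FPKM gene table listed 129.6 and 122 FPKM (log2 -0.09, q = 0.397), and its leading transcript ITGB1-201 went from 107 to 104 FPKM (log2 -0.05, q = 0.844). ITGB4, the other partner of α6 and the laminin receptor chain of hemidesmosomes, had 1.67 and 1.73 counts. These were too few for a fall or a modest rise to be detectable at this depth.

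The αV group showed a fall of the α chain and a rise of 1 β chain. ITGAV, the αV chain, which binds fibronectin, vitronectin and latent TGF-β through their RGD motif, fell from 2473 to 1787 normalized counts (log2 fold change -0.47 ± 0.045 SE, adjusted p = 1.42e-24). Its full-length ITGAV-201 fell from 7.24 to 5.73 FPKM (log2 -0.34, q = 0.00436), and the shorter ITGAV-204 from 1.62 to 0.549 FPKM (log2 -1.56, q = 0.00982). ITGB8, the β8 chain, which pairs only with αV and is known for activating latent TGF-β, rose from 428 to 1380.2 normalized counts (log2 fold change 1.69 ± 0.069 SE, adjusted p = 3.07e-131). ITGB8-201 rose from 1.01 to 2.19 FPKM (log2 1.12, q = 8.33e-04). The 2 chains of 1 receptor thus went in opposite directions.

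The other β partners of αV did not pass. ITGB5 stood at 622 and 618 counts (log2 fold change -0.01 ± 0.077 SE, adjusted p = 0.953), with a 95% interval of -0.16 to 0.14. ITGB6, a chain of epithelia under repair, had 26.1 and 29.0 (adjusted p = 0.814). The ITGB3 locus had 185 and 219 (adjusted p = 0.147), but it also holds EFCAB13, and transcripts with the ITGB3 symbol made up only 2.3% of its control FPKM. Its count therefore says little of the β3 chain. Of the other RGD-binding α chains, ITGA2B, the platelet αIIb chain, had 73.4 and 45.2 counts (log2 fold change -0.70 ± 0.26 SE, adjusted p = 0.0225). Its fall did not pass at an adjusted p of 0.01 or in the deposited FPKM gene table (log2 -0.33, q = 0.48), and its leading transcript there held 0.236 FPKM in control. The platelet markers GP9 and PPBP had means of 0 and 0.182 counts. ITGA5, the α5 chain of the classic fibronectin receptor, had a mean of only 1.12 counts and no adjusted p, and ITGA8 had 1.97 (adjusted p = 0.47).

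The 4 collagen-binding α chains split. At the ITGA1 locus, which holds the α1 chain, counts rose from 2603 to 4111 normalized counts (log2 fold change 0.66 ± 0.036 SE, adjusted p = 2.15e-75). ITGA1 shares this locus and its annotated start with PELO, a ribosome rescue factor, so the count belongs to both. The promoter they share is shown, since 1 start serves both genes. It is the 250 bases before the ITGA1 start in RefSeq (GRCh38.p14, chr5:52787666-52787915, forward strand), with a match to the NF-κB consensus in capitals, which begins at position -188 from the start.
ITGA1 and PELO: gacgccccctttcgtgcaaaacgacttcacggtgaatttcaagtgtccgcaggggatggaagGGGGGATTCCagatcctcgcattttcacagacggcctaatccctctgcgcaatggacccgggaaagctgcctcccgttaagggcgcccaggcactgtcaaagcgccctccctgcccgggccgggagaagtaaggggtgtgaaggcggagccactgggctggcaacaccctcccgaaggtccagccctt
Of the locus FPKM in control, 22.1% came from transcripts with the ITGA1 symbol. The full-length ITGA1-201 doubled, from 2.45 to 4.92 FPKM (log2 1.01, q = 8.33e-04). PELO-201 went from 3.04 to 3.67 FPKM (log2 0.27, q = 0.348), and the most abundant transcript of the locus, which has no gene name, from 10.5 to 13.3 FPKM (log2 0.34, q = 0.0957). Only the full-length α1 transcript passed the threshold among these 3.

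ITGA2, the α2 chain of the main collagen receptor of epithelia and platelets, starts about 30.1 kb from the end of ITGA1 on chromosome 5 and went the other way. It fell from 97.6 to 57.3 normalized counts (log2 fold change -0.77 ± 0.24 SE, adjusted p = 0.00453), which the deposited FPKM gene table did not call (log2 -0.70, q = 0.277). ITGA11, a chain best known from mesenchymal cells, fell from 78.6 to 28.2 normalized counts (log2 fold change -1.48 ± 0.28 SE, adjusted p = 5.03e-07). It was the only member that fell by more than 2-fold and passed, and the FPKM gene table also called it (log2 -2.47, q = 2.32e-04), at levels of 0.399 and 0.0722 FPKM. ITGA10, a cartilage chain, had 9.37 and 18.0 counts and did not pass (adjusted p = 0.171). Fibroblast markers moved in their own way: COL1A1, a collagen I chain, rose from 532 to 1394 normalized counts (log2 fold change 1.39 ± 0.064 SE, adjusted p = 6.25e-104). ACTA2 also rose, at a mean of 11.7 counts (log2 fold change 3.51 ± 0.76 SE, adjusted p = 1.43e-05). LUM and DCN were the lowest markers, with means of 0.336 and 1.22. In that list of 10 genes 2 rose and none fell among 8 tested, and the sum over all its loci was 2717 in control and 3609 in cytokine libraries. PDGFRA, its most abundant marker, had a mean of 1916.5 counts and did not pass (log2 fold change 0.02 ± 0.043 SE, adjusted p = 0.853). Over single-gene loci alone, which hold COL1A1 and leave out PDGFRA, the sum was 802 in control and 1677 in cytokine libraries. The part of such cells in the collagen receptor values was not tested.

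The α4 and α9 chains, receptors for VCAM1, fibronectin and tenascin, did not pass. ITGA4 had 405 and 402 counts (log2 fold change -0.01 ± 0.098 SE, adjusted p = 0.949), with a 95% interval of -0.21 to 0.18. Its locus overlaps CERKL on the opposite strand, and 92.6% of its control FPKM came from 1 transcript with no gene name (1.3 to 1.36 FPKM). ITGA9 had 51.7 and 45.3 counts (adjusted p = 0.685).

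Of the leukocyte integrins, only ITGAE had a sizeable count. ITGAE encodes αE, which pairs with β7 on T cells of epithelia and binds E-cadherin. Its locus fell from 916 to 497 normalized counts (log2 fold change -0.88 ± 0.074 SE, adjusted p = 7.32e-32). Nearly none of the locus FPKM was assigned to the full-length αE message. The full-length ITGAE-201 was listed at 0.00573 and 0.00226 FPKM and was too low for Cuffdiff to test. ITGAE-207, a 4-exon transcript of 672 bases with no annotated coding sequence, held 79.3% of the control FPKM and fell from 25.2 to 11.8 FPKM (log2 -1.09, q = 8.33e-04). A transcript with no gene name also fell, from 1.89 to 1.09 FPKM (log2 -0.80, q = 8.33e-04), and whether it codes for αE is not given. In the FPKM tables the signal at ITGAE thus came mostly from a short RNA of the last 9.21 kb of an 86.6 kb gene.

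This short RNA starts back to back with HASPIN, a kinase of mitosis that lies on the forward strand inside an ITGAE intron. HASPIN, named GSG2 in the deposited tables, fell from 3.06 to 1.07 FPKM (log2 -1.52, q = 2.32e-04). Both transcripts of this divergent pair thus fell. The count table lists HASPIN with no read, and the strand setting of the counting is not given, so reads of the pair cannot be told apart there.

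The rest of the leukocyte chains were near the floor. ITGAL, the αL chain of LFA-1, had 15.4 and 28.2 counts (log2 fold change 0.87 ± 0.41 SE, adjusted p = 0.0814), and ITGB2, its β2 partner, had 16.9 and 7.04 (log2 fold change -1.26 ± 0.58 SE, adjusted p = 0.0751). The point estimates of these partners lay on opposite sides of 0 and neither passed. ITGB7 had a mean of 2.67, ITGAM of 1.58 and ITGAD of 1.12, and ITGAX had no read, which allows up to 3 reads over the 6 libraries. In all, 8 members lay under 10 counts, and these also include ITGA5, ITGA8, ITGB4 and LAMC3. The 7 of them with reads had means of 0.803 to 2.67, and none passed. At this depth a fall or a modest rise in these 8 was not detectable.

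**Figure D2:**
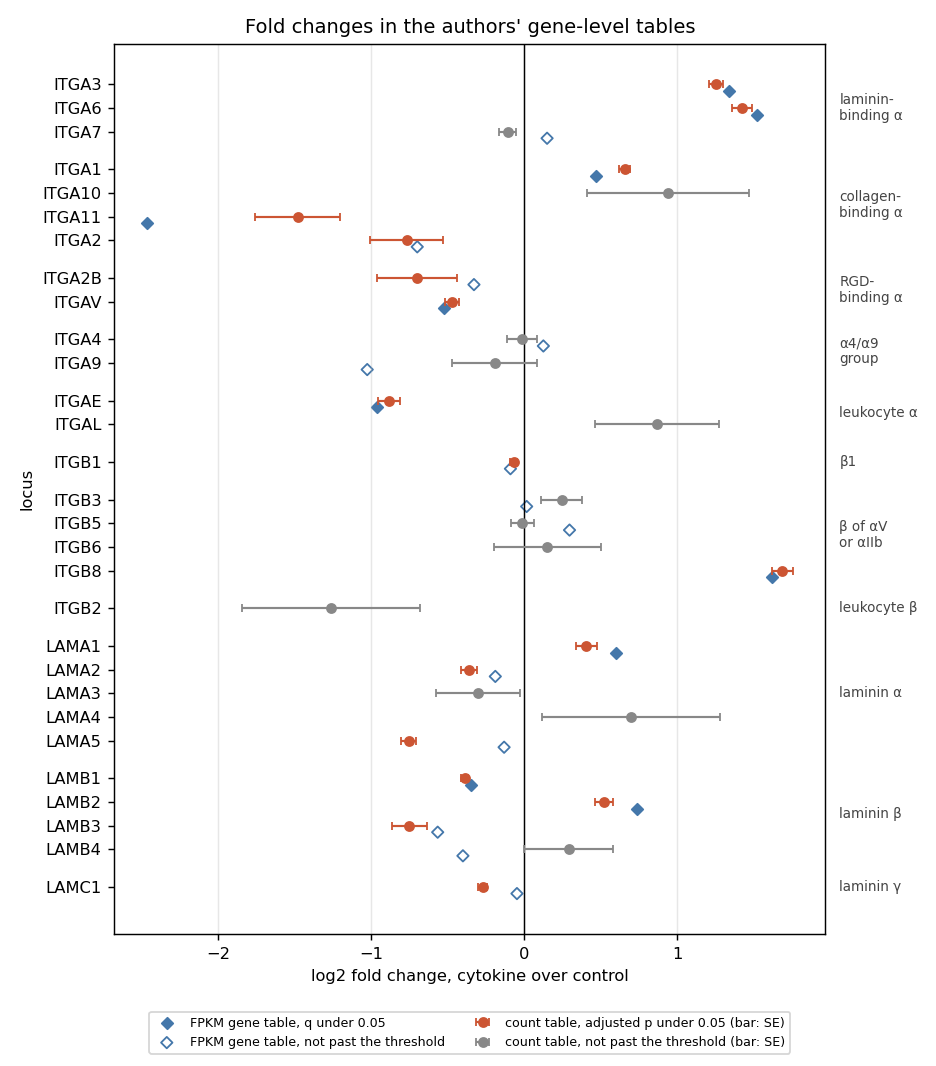
Log2 fold changes, cytokine over control, for 29 members with a mean of at least 10 counts. Circles are the count table's values with their SE, red where past 0.05 and grey otherwise, and diamonds those of the FPKM gene table, filled where past 0.05. ITGB8, ITGA6 and ITGA3 lie above 1 in both tables, and LAMA5 and LAMC1 lie below 0 in both but are past the threshold in the count table alone.

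The 2 gene-level tables come from the same libraries and are no independent support for each other. Of 24 members that both tested, 11 passed in both and all 11 had the same sign, 7 higher and 4 lower. A further 7 passed in the count table alone, and none in the FPKM table alone. Of all loci tested there, 35.7% passed. The 7 were all falls: ITGA2, ITGA2B, ITGB1, LAMA2, LAMA5, LAMB3 and LAMC1. Every rise was called by both.

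Among the laminins, the 3 chains of the α5, β1, γ1 trimer, a main laminin of islet and epithelial basement membranes, all fell in the deposited count table. LAMB1, the β1 chain, fell from 13063 to 9981 normalized counts (log2 fold change -0.39 ± 0.022 SE, adjusted p = 8.29e-66), and LAMC1, the γ1 chain found in most laminins, from 6827 to 5662 normalized counts (log2 fold change -0.27 ± 0.029 SE, adjusted p = 3.53e-20). LAMA5, the α5 chain, fell from 2547 to 1509.8 normalized counts at a locus of 3 genes (log2 fold change -0.75 ± 0.047 SE, adjusted p = 1.84e-56). In that table the LAMA5 locus fell most and the γ chain least, with 95% intervals that do not overlap: -0.85 to -0.66 for α5, -0.43 to -0.34 for β1 and -0.33 to -0.21 for γ1. In the FPKM gene table the order differed, with LAMB1 lowest (log2 -0.35), then LAMA5 (-0.13) and LAMC1 (-0.05). LAMB1 and LAMC1 remain the most abundant β and γ chains per length, with LAMB1 at 57.7 and 45.4 FPKM and LAMC1 at 21.3 and 20.7.

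The deposited isoform table shows the same 3 falls in the full-length transcripts. LAMB1-201 fell from 43.8 to 32.9 FPKM (log2 -0.41, q = 8.33e-04) and LAMC1-201 from 18.7 to 15.8 FPKM (log2 -0.24, q = 8.33e-04). LAMA5-201 fell from 2.19 to 0.751 FPKM (log2 -1.54, q = 8.33e-04), to 0.343 times control. At gene level Cuffdiff called neither LAMC1 (log2 -0.05, q = 0.812) nor LAMA5 (log2 -0.13, q = 0.744). At LAMC1 a short transcript with no coding sequence, LAMC1-206, was listed at 2.1 and 4.27 FPKM (log2 1.02, q = 0.575). At LAMA5 the locus also holds RP5-908M14.9, a long noncoding RNA that lies outside the LAMA5 gene, at 6.79 and 8.19 FPKM (log2 0.27, q = 0.853). That RNA held 41.3% of the control locus FPKM, and full-length LAMA5 held 13.3%. The gene value of LAMA5 in that table is thus mostly not that of the full-length message.

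LAMB2, the β2 chain that can replace β1 in the same trimer and is typical of vessel and nerve basement membranes, rose from 913 to 1314 normalized counts (log2 fold change 0.52 ± 0.059 SE, adjusted p = 5.25e-18). Full-length LAMB2-201 rose from 2.59 to 3.81 FPKM (log2 0.56, q = 8.33e-04), as did LAMB2-206, a fragment with a retained intron, from 0.351 to 1.09 FPKM (log2 1.64, q = 0.00688). So β1 fell while β2 rose, and the ratio of LAMB1 to LAMB2 at gene level went from 57.7 against 8.2 FPKM to 45.4 against 13.7. LAMB1 stayed the more abundant. A stretch of the LAMB2 promoter is shown because it holds a match to the STAT-binding GAS element, TTCNNNGAA, in capitals, which begins 49 bases before the start of LAMB2-201. It is chr3:49133081-49133109 on the reverse strand in RefSeq (GRCh38.p14). The longer LAMB2-202 begins before it.
LAMB2: gttgcgctccTTCCCAGAAtccgctccgg

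LAMB3, the β3 chain of the laminin of hemidesmosomes and migrating epithelia, fell from 336 to 199.9 normalized counts (log2 fold change -0.75 ± 0.11 SE, adjusted p = 2.72e-10), and LAMA3, the α3 chain of the same trimer, had 48.5 and 39.4 counts (log2 fold change -0.30 ± 0.28 SE, adjusted p = 0.473). The β3 fall did not pass in the FPKM gene table (log2 -0.56, q = 0.063). A transcript with no gene name there went from 0.888 to 0.421 FPKM (q = 0.131), and LAMB3-201 stood at 0.598 and 0.6 FPKM.

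The 3 other laminin α chains differed. LAMA1, the α1 chain of embryonic laminin and the main one in Matrigel, rose from 893 to 1184 normalized counts (log2 fold change 0.41 ± 0.069 SE, adjusted p = 1.66e-08). Its full-length LAMA1-201 was listed at 0.961 and 1.16 FPKM (log2 0.28, q = 0.637), and the transcript that passed was LAMA1-203, a retained-intron form, which rose from 0.678 to 1.4 FPKM (log2 1.05, q = 8.33e-04). LAMA2, the α2 chain of muscle and nerve, fell from 1704 to 1327 normalized counts (log2 fold change -0.36 ± 0.051 SE, adjusted p = 9.70e-12). Transcripts with its symbol held 19.3% of the control locus FPKM, and the 1 that fell past the threshold has no gene name (2.02 to 1.27 FPKM, log2 -0.67, q = 8.33e-04). LAMA4, the α4 chain of vessel walls, had 7.64 and 12.4 counts (adjusted p = 0.409). LAMB4 had 36.1 and 44.2 (adjusted p = 0.519), and LAMC3 a mean of 0.803 with no adjusted p.

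**Figure D3:**
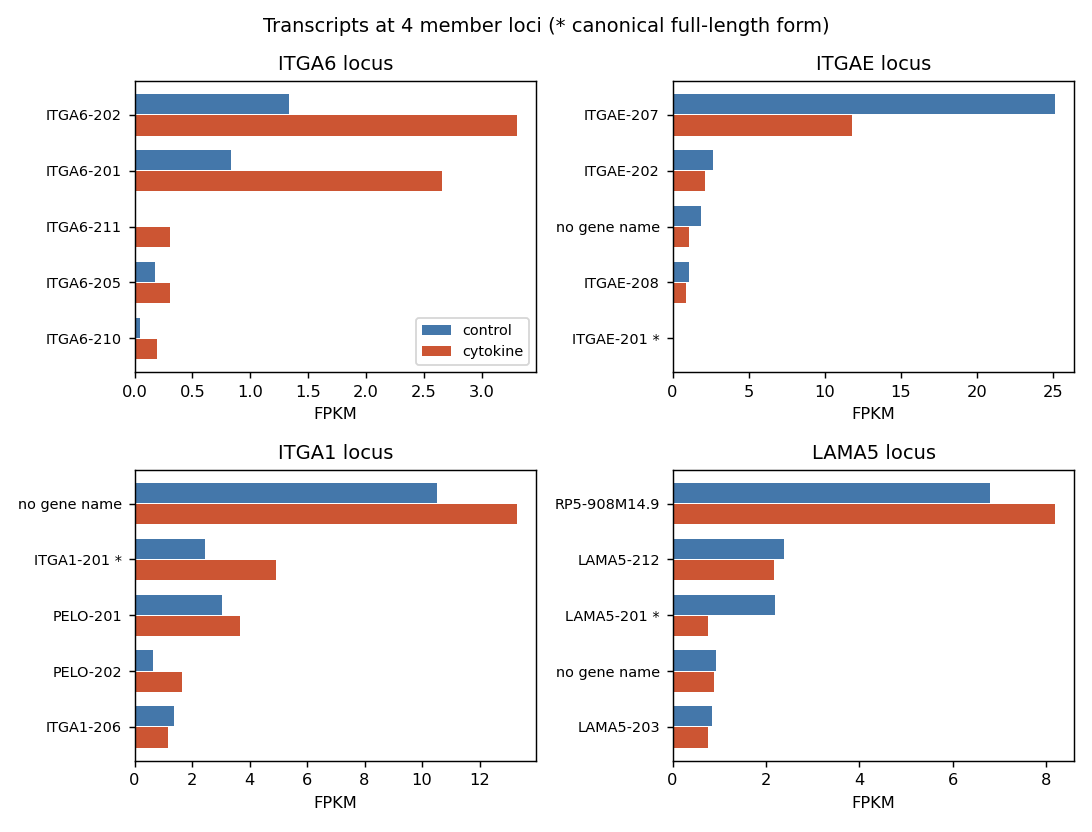
FPKM of the leading transcripts at 4 member loci in the authors' isoform table, with 1 bar for each group, no error available, and an asterisk at the canonical transcript in GENCODE. At ITGA6 both coding forms rise, and at ITGAE most of the signal is ITGAE-207, with the canonical form close to 0. At LAMA5 the canonical form falls from 2.19 to 0.751 FPKM beside a noncoding RNA that does not pass.

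The isoform table lists 392 transcripts under a member symbol, of which 89 were tested and 15 passed, 9 higher and 6 lower. That is 16.9%, beside 9.87% of all tested transcripts. These shares are not matched for abundance, so no excess among members can be read from them. Of the 16 members whose canonical transcript was tested, 5 rose, among them ITGA1, ITGA3, ITGB8 and LAMB2, and 4 fell (ITGAV, LAMA5, LAMB1 and LAMC1). The direction matched that of the count table for all 9. ITGA6 stands apart from this count, since no transcript listed for it is the canonical one in GENCODE 44.

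Promoter windows of RefSeq, from 250 bases before to 50 after each start, were found for 26 of the 38 genes, as 33 windows. Each was searched on both strands for 4 elements bound by factors that these cytokines are known to switch on. The GAS element TTCNNNGAA was in 2 member windows, LAMB2 and ITGAE, beside 7.66% of all 35116 windows. The NF-κB consensus was in 6 windows of 5 members, ITGA1, ITGA5, ITGA10, ITGA11 and LAMB3, beside 5.91% of all. The AP-1 element TGANTCA was in 3, ITGA5, LAMA3 and LAMB3, beside 7.71%. GAAANNGAA, the core of the interferon-stimulated response element, was in 3, ITGA10, ITGB5 and LAMB3, beside 8.11%. Of the 7 members that rose, 4 had a window and 2 a match, and of the 11 that fell, 11 had a window and 3 a match. ITGA6 and ITGB8 had a window and no match. A match is a run of letters and not a shown binding site.

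The partners of laminin in basement membranes, a list of 18 genes, moved both ways: of 16 loci tested, 3 rose, 6 fell and 7 did not pass the test. That is 56.2% past the threshold, beside 37.7% of all loci tested and 71.2% of those with at least 100 counts. FREM2, which sits at the epithelial basement membrane beside FRAS1, fell from 783 to 174 normalized counts (log2 fold change -2.17 ± 0.098 SE, adjusted p = 7.13e-108), while FRAS1 rose from 1607 to 3882 normalized counts (log2 fold change 1.27 ± 0.04 SE, adjusted p = 1.33e-218). HSPG2, which encodes perlecan, a linker of laminin and collagen IV, fell from 957 to 321 normalized counts (log2 fold change -1.58 ± 0.079 SE, adjusted p = 2.24e-87). NID2, a nidogen with the same linking role, fell from 90.6 to 35.1 normalized counts (log2 fold change -1.37 ± 0.25 SE, adjusted p = 1.37e-07), which the FPKM gene table did not call (q = 0.206). AGRN, which encodes agrin, a laminin-binding proteoglycan, rose (log2 fold change 0.42 ± 0.036 SE, adjusted p = 6.24e-30), and COL18A1 rose slightly (log2 fold change 0.15 ± 0.048 SE, adjusted p = 0.00803). The collagen IV chains COL4A1 and COL4A2, the main network beside laminin, did not pass (adjusted p = 0.181 and 0.916). The median over the list was -0.10.

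The other laminin receptors and their companions, a list of 23 genes, also moved both ways: 7 rose, 15 fell and 1 did not pass the test, with a median of -0.25. With re-centred fold changes 7 rose and 13 fell. The share past the threshold was 95.7%, beside the same 37.7% and 71.2%. BCAM, the Lutheran glycoprotein, which binds laminin α5, fell from 9897 to 4833 normalized counts (log2 fold change -1.03 ± 0.028 SE, adjusted p = 1.47e-288). It thus fell with LAMA5. SGCD, a sarcoglycan of the dystroglycan complex, fell from 3887 to 1379 normalized counts (log2 fold change -1.49 ± 0.042 SE, adjusted p = 2.08e-275), and SDC1, a syndecan, from 940.5 to 472 normalized counts (log2 fold change -0.99 ± 0.08 SE, adjusted p = 2.07e-34). Among the largest rises were those of CD82 (log2 fold change 0.89 ± 0.042 SE, adjusted p = 2.26e-95) and TSPAN1 (log2 fold change 0.87 ± 0.084 SE, adjusted p = 3.08e-24), both tetraspanins, membrane proteins that organise integrins. CD151, the tetraspanin best known as a partner of α3 and α6, fell (log2 fold change -0.16 ± 0.038 SE, adjusted p = 1.73e-04) at a locus of 2 genes, while both α chains rose, and the FPKM gene table did not call it (q = 0.478).

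Other integrin ligands, a list of 34 genes, held the largest changes of the 4 adhesion lists: of 29 loci tested, 12 rose, 6 fell and 11 did not pass the test, with a median of 0.48. Of those tested, 62.1% passed, beside 37.7% of all loci tested (18.0% higher and 19.7% lower) and 71.2% of those with at least 100 counts. ICAM1, the ligand of the β2 integrins, rose from 9.54 to 8446 normalized counts at the locus it shares with ICAM4 (log2 fold change 9.79 ± 0.27 SE, adjusted p = 1.31e-296). Its receptors ITGAL and ITGB2 stayed at or under 28.2 counts in both groups. TNC, which encodes tenascin-C, a ligand of the αV and α9 chains, rose from 24.8 to 2328 normalized counts (log2 fold change 6.55 ± 0.17 SE), and FN1, fibronectin, from 2788 to 43067 normalized counts (log2 fold change 3.95 ± 0.025 SE). For both the deposited adjusted p is listed as 0. Fibronectin thus rose while ITGAV fell and ITGA5 was hardly detected. CDH1, E-cadherin and the ligand of αE, rose from 9963 to 53208 normalized counts (log2 fold change 2.42 ± 0.018 SE), while full-length ITGAE was close to 0 FPKM. NPNT, nephronectin and the ligand of α8, fell from 1349.9 to 245 normalized counts (log2 fold change -2.46 ± 0.081 SE, adjusted p = 7.08e-200), TGFB3 from 249 to 108 normalized counts (log2 fold change -1.20 ± 0.15 SE, adjusted p = 1.17e-15) and MFGE8, a bridge between αV integrins and dying cells, from 2391 to 1561 normalized counts (log2 fold change -0.61 ± 0.046 SE, adjusted p = 8.34e-40).

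In the list of 34 genes for focal adhesions and integrin activation, of 32 loci tested 11 rose, 12 fell and 9 did not pass the test, with a median of -0.01. The share that passed, 71.9%, was near the 71.2% of all loci with at least 100 counts. Among loci with a mean of at least 50 counts the largest rises were those of PTK2B, a kinase related to focal adhesion kinase, from 448 to 1063 normalized counts (log2 fold change 1.24 ± 0.074 SE, adjusted p = 4.18e-62), APBB1IP, a link from RAP1 to talin (log2 fold change 0.88 ± 0.15 SE, adjusted p = 4.91e-08), and RAP1B, a GTPase that activates integrins (log2 fold change 0.71 ± 0.029 SE, adjusted p = 9.43e-129). The largest falls were those of FLNA, filamin A, which binds β tails and holds integrins inactive, from 2210.1 to 869 normalized counts (log2 fold change -1.35 ± 0.051 SE, adjusted p = 6.81e-152), LIMS2 (log2 fold change -1.29 ± 0.15 SE, adjusted p = 6.83e-18) and PARVB (log2 fold change -1.21 ± 0.073 SE, adjusted p = 7.68e-61). LIMS2 and PARVB belong to the complex of integrin-linked kinase, and the PARVB locus holds 2 genes. ILK, the kinase itself, rose from 17.1 to 34.9 normalized counts (log2 fold change 1.03 ± 0.40 SE, adjusted p = 0.0276). In the FPKM gene table ILK rose from 39.8 to 76.9 FPKM (q = 2.32e-04). The tables disagree on its level: LIMS1 of the same list had a mean of 2303.5 counts at 14.4 FPKM in control. The count of ILK may therefore hold few of its reads. FERMT3, the kindlin of blood cells, rose from 16.0 to 37.4 normalized counts (log2 fold change 1.23 ± 0.39 SE, adjusted p = 0.00552), which the FPKM gene table did not call (q = 0.731). Kindlin 2 (FERMT2, log2 fold change 0.46 ± 0.049 SE, adjusted p = 7.85e-20), an activator of β1 integrins, rose. Talin 1, the other main activator, was slightly lower at a locus of 2 genes (TLN1, log2 fold change -0.09 ± 0.024 SE, adjusted p = 0.0011). That call was lost with re-centred fold changes (-0.03, adjusted p = 0.379), and the FPKM gene table gave the opposite sign (log2 0.33, q = 0.191).

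**Figure D4:**
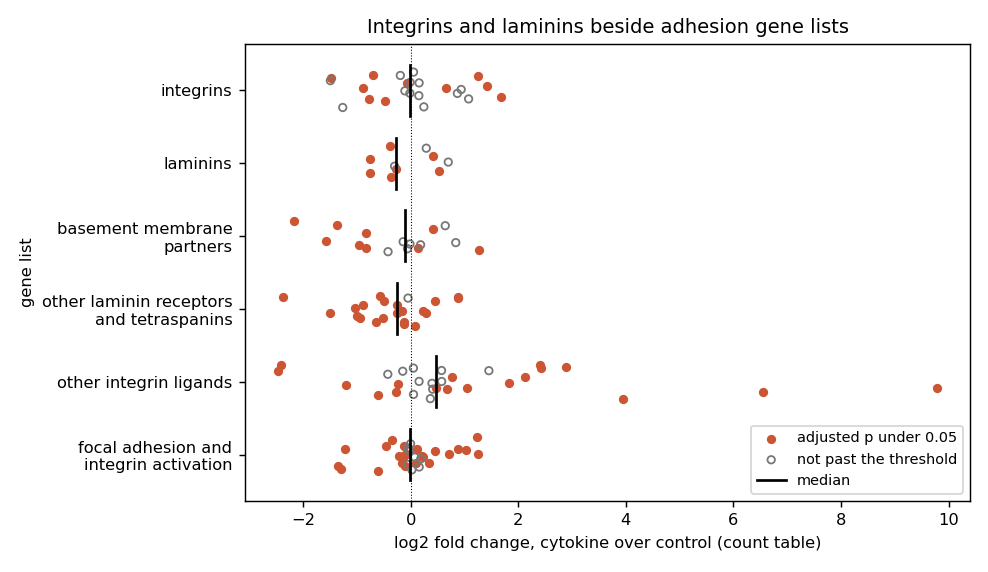
Log2 fold changes (count table, cytokine over control) of the tested integrins, laminins and genes of 4 adhesion lists, with 1 point per locus drawn, filled where the adjusted p is under 0.05, and a line at the median of all loci tested in the list. The integrins and laminins drawn lie between -1.49 and 1.69, while the other integrin ligands reach 9.79 at ICAM1.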

How the data were processed

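Messenger RNA of 6 EndoC-βH1 libraries, 3 per group, was analysed. The submitters' processing notes name DESeq, Cuffdiff 2.2.1, StringTie, STAR 2.5.2b, FastQC 0.10.1 and bcl2fastq, and hg38 as the build. The read counter, its strand setting and the annotation were not given in the sources used here. Signal in the deposited count tables is a mean normalized count over libraries, per the file headers, whose column names are those that DESeq2 writes. The log2 values are the authors' fold changes with standard errors, per the file headers. The score is the authors' test statistic, per the file headers. The p-values, adjusted p-values and q-values are as deposited. The FPKM values are the authors' group values from Cuffdiff, per the file headers. Means per group were computed from the deposited mean and fold change, and 95% intervals as 1.96 SE. A locus can hold several genes, and its value belongs to all of them. On the opposite strand, 8 members overlap a protein-coding gene, among them ITGA4, ITGA7, ITGAE, LAMA5 and LAMB1.

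Members were picked by symbol alone, but the rule, the lists and the motifs were set with earlier results of these data known. All members were accounted for, and those with a mean of at least 10 counts were named with values, except 1 that is counted but not reported here by name, as is 1 list gene. From each adhesion list the 3 largest rises and falls with a mean of at least 50 counts were named; other list genes were chosen after their values were seen. Transcripts named were the leading ones and those past the threshold at 1 FPKM or more. Marker lists of 7 cell types were counted without a test. Symbols not found were matched through older symbols. Alternatives were other thresholds, filters and centring, and Cuffdiff's test in place of the count table's, and the re-centring was tested on simulated data. Coordinates are from GENCODE 44. The tools were matplotlib 3.10.9, scipy 1.17.1, numpy 2.4.6, pandas 2.3.3 and Python 3.11.15.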

Additional observations from a re-analysis of the deposited data

Results flagged for a closer look

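Transcripts without a gene name were assembled by the authors at member loci, and 2 of them reached 1 FPKM with cytokines at more than double their control level. At ITGA3 the level was 0.14 FPKM in control and 1.72 with cytokines (q = 0.233), beside 13.2 for ITGA3-202. At ITGB8 it was 0.037 in control and 1.43 with cytokines (q = 0.354), beside 2.19 for ITGB8-201. Neither passed Cuffdiff's test. They stand out as signal outside the named transcripts and above the control level.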

How the results depend on the processing

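No paired analysis was possible because the tables hold 1 comparison and no values per library. For the same reason the fits without each library in turn, and any check for a library that stands apart, were not run. The count of 18 members past the threshold fell to 5 with a change of at least 2-fold required (4 higher, 1 lower) and to 11 with Cuffdiff's gene test (7 higher, 4 lower). An adjusted p of 0.01, a minimum mean of 10 counts, re-centred fold changes and loci of a single gene symbol left it within 1.5 times, as did leaving out the loci of ITGAE, ITGA1 and ITGB3, an alternative chosen after seeing the data. Counts in the FPKM tables and in the 4 adhesion lists also stayed within 1.5 times under their alternatives, and those for the lists were chosen after seeing the data. Re-centring moved all log2 fold changes by 0.056 upward. Among the 30 members with a mean of at least 10 counts it changed 1 call, that of ITGB1. Cuffdiff changed 7 calls of 24, named in the report. On the log2(FPKM + 0.1) scale, 13 of 30 values moved by more than the spread implied by the SE, and no member that passed changed sign. Depth limits the 8 members under 10 counts. The causes of these differences were not tested.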
